A study of Equus caballus with 6 samples.

Results

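The genes described here are 57 genes that the study listed as tendon-selective, that is, more highly expressed in tendon than in other tissues of the rat or the human. They were the 67 Ensembl gene identifiers of that list less 10 matrix and signalling genes, DCN, ASPN, THBS4, LAMA5, CCL2, IL4RA, IGFBP5, IGFBP6, NOV and WNT5B, and were 57 of the 26992 entries of the expression table. No cutoff on the libraries compared here was used, but the choice was made with earlier results of these data known. Of the 10 genes left out, 4 were lower and 3 higher after Scx siRNA by the test described below. The list names 26 of them for selectivity in human tendon, 29 in rat tendon and 2, SEMA3B and TNMD, in both.

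Scleraxis (Scx) is a basic helix-loop-helix transcription factor that marks tendon progenitors and tendon fibroblasts (tenocytes), where it is known to act on genes of the collagenous matrix. Mohawk (MKX) is a homeobox transcription factor of the same lineage, and tenomodulin (TNMD) is a membrane glycoprotein of differentiating tenocytes that is known to depend on Scx. A tendon-selective gene need not be a matrix gene, and the 57 genes also encode secreted signals, membrane receptors, transcription factors, cytoskeletal proteins and enzymes.

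The study asked what Scx does in mature tenocytes. Both groups held tenocytes grown from the superficial digital flexor tendon of 1 adult female horse, used at passage 3 on collagen-coated flexible membranes under cyclic strain of 1% at 0.5 Hz for 2 h a day over 3 days. Cells of both groups were nucleofected with siRNA. The 3 Scx siRNA libraries came from cells given an siRNA against the equine Scx mRNA, and the 3 scramble control libraries from cells given a non-targeting siRNA. Each group was thus 3 repeats with cells of that animal, so the p-values measure the spread between repeats and not between horses. In such bulk libraries fewer cells of a type and less RNA per cell cannot be told apart.

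The siRNA is shown because every comparison below rests on it. The antisense strand is the one that pairs with the mRNA, and the capitals in it mark its seed, bases 2 to 8 from its 5′ end. The last 2 bases of each strand are an overhang outside the paired core of 19 bases.
Scx siRNA sense strand: agagaaaguugagcaaggatt
Scx siRNA antisense strand: uCCUUGCUcaacuuucucugg

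Reads on the Scx mRNA itself numbered 5, 7 and 25 in the scramble control, and 5, 0 and 0 in the libraries labelled Scx siRNA 1, 2 and 3. In normalized counts the first of these libraries, at 6.16, lay within the scramble control values of 4.88, 5.88 and 16.0, against its label. Counts as low as these, however, check the labels only weakly. The log2 fold change of Scx was -2.19 (SE 1.14, adjusted p = 0.192 by limma, Benjamini-Hochberg), and it was -3.14 without the library labelled Scx siRNA 1 (adjusted p = 0.0450, limma). Results below that change without this library are given with and without it. Between 8181819 and 12213421 reads fell on genes in a scramble control library, and between 6539504 and 10255963 in a Scx siRNA library. Of the markers of tenocytes, MKX, COL1A1, COL1A2, DCN, BGN, COMP, TNC and FMOD had reads in every library and TNMD was listed at 0 in all 6. The spread between replicates was wider after Scx siRNA, with a common dispersion from edgeR of 0.360 against 0.0129 in the scramble control.

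Of the 57 genes, 49 had a read in at least 1 library and 42 had a mean of at least 5 normalized counts, the minimum for the test. The test was limma's moderated test on log2(normalized count + 1), two-sided, over all 11517 genes that passed this minimum, and a gene is called lower or higher at an adjusted p under 0.05. Fold changes are on this log2 scale, Scx siRNA minus scramble control. By this test 10 genes were lower after Scx siRNA and 1 gene was higher. The lower genes were GSDMD, CYTH3, ARSB, LOXL4, AIFM2, USF1, PRRC2C, XG, CPXM2 and EZR, and the higher gene was DTWD1. These 11 genes are 26.2% of those tested, against 25.0% of all genes tested. By direction, 23.8% of the 42 were lower, against 12.1% of all genes, and 2.38% were higher, against 12.9%. Scaled to total reads, 13 of the 42 were lower and 1 higher, and the shares of all genes moved to 18.0% lower and 8.33% higher. Where a log2 change of 1.5 or more in size was also asked for, 4 genes were lower (GSDMD, AIFM2, XG and CPXM2), against 6.23% of all genes, and DTWD1 was higher, against 3.61%.

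**Figure D1:**
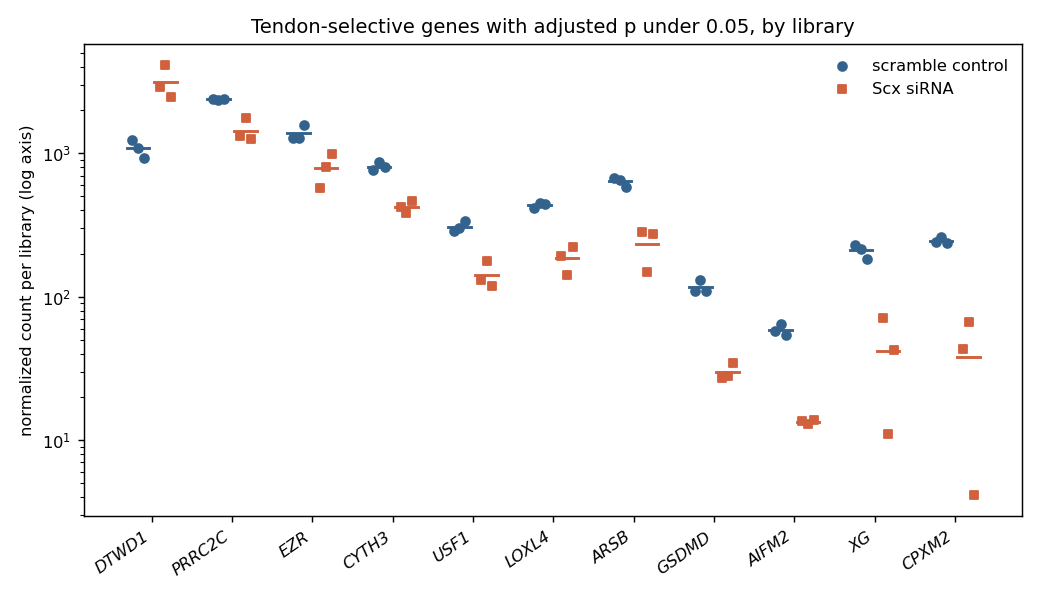
Normalized counts (log axis) of the 11 called genes in each of the 3 scramble control and 3 Scx siRNA libraries, 1 point per library, with the group mean as a bar. In each of the 11 genes the groups do not overlap, and only for DTWD1 are the Scx siRNA libraries the higher ones.

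The lean to lower values was also read over all 42 tested genes, the 10 called lower among them. The 42 genes had a median log2 fold change of -0.64, and all 11517 genes one of -0.20, and 31 of the 42 had a negative value, or 73.8% against 56.6%. In 15 genes (35.7%) every Scx siRNA library lay below every scramble control library, against 25.8% of all genes, and in 3 genes (7.14%), DTWD1, PRRX1 and ATF3, every one lay above, against 22.3%. Each Scx siRNA library showed the lean on its own. Against the scramble control mean, the median gene of the 42 stood at a log2 difference of -0.38, -0.59 and -0.46 in the libraries labelled Scx siRNA 1, 2 and 3, and the median of all genes at -0.10, -0.15 and -0.05. In total the 57 genes took 0.671%, 0.673% and 0.602% of the reads of the scramble control libraries and 0.451%, 0.539% and 0.486% of those of the Scx siRNA libraries, so the shares did not overlap. Scaled to total reads, however, the median log2 fold change of all genes was itself -0.48. The shares also rest largely on THBS1 and COL12A1, with 13787 and 13460 of the 54894 reads in the library labelled scramble control 1.

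**Figure D2:**
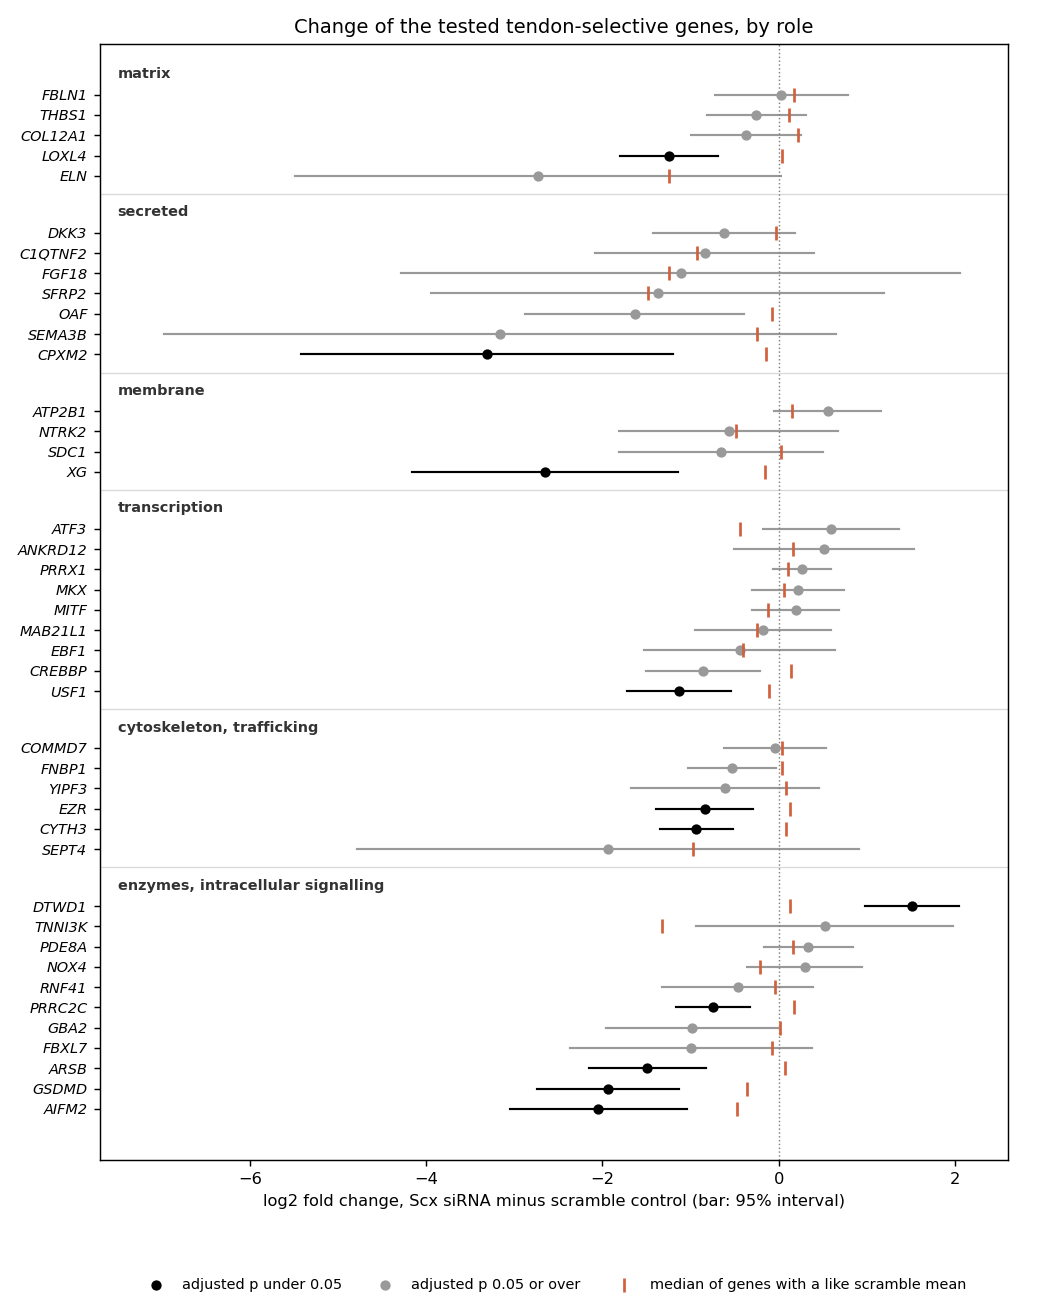
Log2 fold change (Scx siRNA minus scramble control) of the 42 tested genes with its 95% confidence interval from limma, grouped by role. Called genes are black and the others gray, the orange mark is the median of genes with a like scramble control mean, and 31 of the 42 points lie to the left of 0.

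Each gene was also set beside the genes outside the list with a scramble control mean close to its own. By this reading 28 of the 42 genes lay below the median of their like-expressed genes and 14 above, with a median difference of -0.57. The counts were also read by level of expression. Among 17 genes with a scramble control mean of 200 to 1000 normalized counts, 6 were lower (35.3%), against 15.7% of the 4108 other genes of that range, and their median was -0.94 against -0.02. In that range 0 were higher, against 18.0% of the other genes. The 11 genes at 1000 or more had 2 lower (18.2%) and 1 higher, near the 14.8% lower of the 1713 other genes there, and a median of 0.03 against 0.09. Of 8 genes between 50 and 200, 2 were lower (GSDMD and AIFM2, 25.0%), against 10.3% of the other genes there, with a median of -0.51 against -0.36. Here 0 were higher, against 9.67% of the other genes. Of the 6 tested genes under 50, 0 were called by limma or edgeR (0 at an unadjusted p under 0.05 by limma), with a median of -1.24 against -0.80 of the 2468 other genes at that level. Of those other genes, 6.28% were lower and 3.77% higher by limma.

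**Figure D3:**
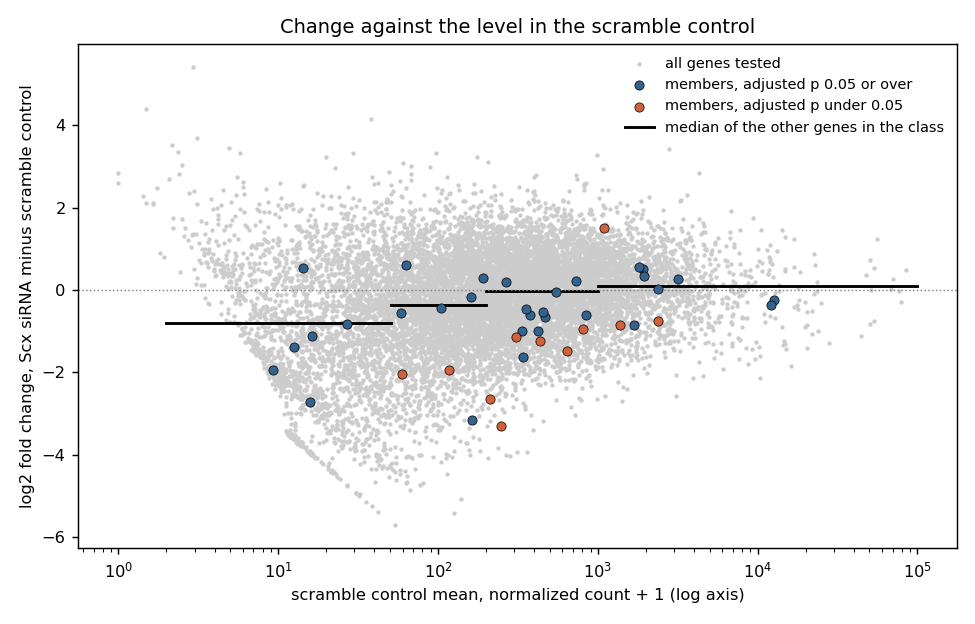
Log2 fold change of the 42 tested genes against their scramble control mean (normalized count + 1, log axis), orange where called and blue where not, over all tested genes in gray. Black lines are the medians of the other genes of each class of level, at -0.02 between 200 and 1000, where 6 of 17 genes are called lower.

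Matrix proteins or proteins that act on the matrix are encoded by 7 of the genes, of which 5 were tested and 1, LOXL4, was lower. That is 20% of those tested, against 12.1% of all genes. LOXL4 (ENSECAG00000005573) is a lysyl oxidase that cross-links collagen and elastin. It had 414, 447 and 443 normalized counts in the scramble control and 192, 143 and 224 after Scx siRNA, with no overlap, and fell by 1.24 on the log2 scale (SE 0.24, adjusted p = 0.0119, limma) to 42.8% of the scramble control mean. Elastin (ELN), the core of elastic fibers, had 18, 14 and 24 reads in the scramble control and 10, 0 and 0 after Scx siRNA, so the groups are told apart by the libraries labelled Scx siRNA 2 and 3 and not by the first. Its log2 fold change of -2.73 missed the threshold (adjusted p = 0.129, limma) and was -3.97 without the library labelled Scx siRNA 1 (adjusted p = 0.0163, limma). The abundant members overlapped between the groups. THBS1, a matricellular protein that activates latent TGF-β, had 13448, 12923 and 11594 against 7601, 12286 and 12801 normalized counts, low in the library labelled Scx siRNA 1 alone. COL12A1, a collagen that bridges fibrils, had 13129, 14054 and 9108 against 9129, 12131 and 7085, a log2 fold change of -0.37 (95% interval -0.99 to 0.26, adjusted p = 0.335, limma). COL12A1 was called lower with quantile (-0.80) and cyclic loess normalization (-0.77), and its adjusted p ran from 0.0273 to 0.509 over the alternatives with all libraries (limma, edgeR or DESeq2). The fold change of fibulin 1 (FBLN1), a glycoprotein of elastic fibers and basement membranes, was 0.03 (95% interval -0.73 to 0.78) and took either sign with the scaling.

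Of the 11 genes for secreted proteins other than matrix, 7 were tested and 1, CPXM2, was called lower (14.3%, against 12.1% of all genes). All 7 had a negative log2 fold change, with a median of -1.37, but beside like-expressed genes 4 lay below and 3 above. CPXM2 (ENSECAG00000024631) is a secreted member of the carboxypeptidase family. It had 239.9, 260.4 and 237 normalized counts in the scramble control and 43.1, 66.8 and 4.14 after Scx siRNA, 246 ± 12.9 against 38.0 ± 31.6 (mean ± SD, n = 3). All Scx siRNA libraries were low, but they spread from 4.14 to 66.8, and the 4.14 is a count of 3 reads. The log2 fold change was -3.31 (SE 0.90, adjusted p = 0.0351, limma), the most negative of the 42 genes, and ranged from -4.03 without the library labelled Scx siRNA 2 to -2.17 without Scx siRNA 3. Without the library labelled Scx siRNA 1 its adjusted p was 0.0565 (limma). On the recovered reads edgeR gave -2.71.

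OAF, a secreted protein first described in the fly, had 387, 328 and 301 against 94.8, 52.8 and 249 normalized counts, lower in every Scx siRNA library, and missed the threshold (-1.63, SE 0.53, adjusted p = 0.0596, limma; 0.0202 to 0.0929 over the alternatives with all libraries). Without the library labelled Scx siRNA 3, its highest, OAF was called lower (-2.23, adjusted p = 0.00893, limma). SEMA3B, a semaphorin and the only tested gene named for both species, had 143, 159 and 184 against 39.4, 0 and 146. Its Scx siRNA libraries thus ran from no read to the level of the scramble control, and neither limma (-3.16, adjusted p = 0.189) nor edgeR (-1.44, adjusted p = 0.394) called it, though limma with a weight for each group did (adjusted p = 0.0374; 0.0374 to 0.394 over the alternatives with all libraries). The Wnt antagonist DKK3 had 307, 404 and 418 against 241, 156 and 379, and the complement-like adipokine C1QTNF2 had 19, 31 and 52 against 9, 14 and 12 reads, in normalized counts below the scramble control in each library but at few reads. FGF18, a growth factor for cartilage and bone, had 18, 19 and 19 reads in the scramble control and 41, 7 and 0 after Scx siRNA. Its direction depended on the method, with a log2 fold change of -1.11 from limma and 0.29 from edgeR. The Wnt modulator SFRP2 had 6, 22 and 16 against 7, 8 and 0 reads.

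Membrane proteins are encoded by 11 of the genes, and 5 of them (TNMD, CHODL, CNTN3, SELE and UTS2R) were listed at 0 in every library. XG (ENSECAG00000000026), the XG blood group glycoprotein, was the 1 lower gene of the 4 tested (25%, against 12.1% of all genes). It had 231, 216 and 184 normalized counts in the scramble control and 71.4, 10.96 and 42.8 after Scx siRNA, 19.8% of the scramble control mean, with no overlap and its lowest value in the library labelled Scx siRNA 2. The log2 fold change was -2.65 (SE 0.64, adjusted p = 0.0252, limma) and ranged from -3.20 without the library labelled Scx siRNA 1 to -1.90 without Scx siRNA 2. Syndecan 1 (SDC1), a heparan sulfate proteoglycan that binds matrix and growth factors, had 479, 464 and 456 against 408, 125 and 509.7. The library labelled Scx siRNA 2 was far below the rest, and the log2 fold change of -0.65 had a 95% interval of -1.82 to 0.51. The neurotrophin receptor NTRK2 had 56.6, 68.0 and 48.6 against 20.9, 73.8 and 35.9, again with overlap. The plasma membrane calcium pump ATP2B1 had 2116, 1629 and 1658 against 2608, 3659 and 1910.5, a log2 fold change of 0.56 (adjusted p = 0.153, limma), and was called higher without the library labelled Scx siRNA 3 (0.79, adjusted p = 0.0441, limma).

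The 10 genes for transcription factors and other nuclear proteins had no common direction. Of the 9 tested, 5 had a positive and 4 a negative log2 fold change, and their median was 0.20. The share called lower was 11.1%, against 12.1% of all genes. USF1 (ENSECAG00000004755), a basic helix-loop-helix leucine zipper factor that binds E-boxes as Scx does, was the 1 gene called. It had 287, 302 and 336 normalized counts in the scramble control and 131, 176 and 119 after Scx siRNA, and fell by 1.13 on the log2 scale (SE 0.25, adjusted p = 0.0188, limma) to 46.0% of the scramble control mean. The acetyltransferase CREBBP, a coactivator, had 1753, 1755 and 1549 against 985, 1314 and 622, with no overlap, and lay just outside the threshold (-0.85, adjusted p = 0.0592, limma; 0.00703 to 0.0633 over the alternatives with all libraries). Without the library labelled Scx siRNA 2 it was called lower (-1.10, adjusted p = 0.00615, limma).

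The factors of the tendon lineage were not called. MKX had 692, 779 and 710.4 against 754, 1142 and 707, high in the library labelled Scx siRNA 2 and within the range of the scramble control in the other two, and its log2 fold change of 0.22 had a 95% interval of -0.30 to 0.75. PRRX1, a homeobox factor of limb mesenchyme, had 3275, 3040.3 and 3208 against 3889.6, 3714 and 3832, above the scramble control in each library. The difference was 0.26 (adjusted p = 0.206, limma), and its sign turned when libraries were scaled to total reads, by quantiles or by cyclic loess, as that of MKX and MITF did under at least 1 alternative. ATF3, a stress-response factor, was also above the scramble control in each library (56.6, 63.0 and 66.5 against 102, 109 and 74.6, log2 fold change 0.59, adjusted p = 0.218, limma). ANKRD12, which binds nuclear receptor coactivators, had 2246, 1831 and 1702 against 1863, 5821 and 1868, and only the library labelled Scx siRNA 2 was high (log2 fold change 0.51, and -0.04 without it). The melanocyte and osteoclast factor MITF, the B cell and adipocyte factor EBF1 and the developmental gene MAB21L1 had log2 fold changes of 0.20, -0.44 and -0.18, none past the threshold.

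All 6 genes for proteins of the cytoskeleton and of trafficking were tested, all with a negative log2 fold change, and 2 were lower, CYTH3 and EZR. That is 33.3% lower, against 12.1% of all genes, of which 56.6% had a negative value. CYTH3 (ENSECAG00000025034) encodes cytohesin 3, an exchange factor for ARF GTPases. It had 761, 866 and 798 normalized counts in the scramble control and 419.9, 381 and 468 after Scx siRNA, a close set in both groups, and fell by 0.94 on the log2 scale (SE 0.18, adjusted p = 0.0113, limma) to 52.3% of the scramble control mean. Ezrin (EZR, ENSECAG00000018333) links the actin cortex to the plasma membrane. Its normalized counts were 1286, 1280.0 and 1576 against 570.1, 798 and 992, lowest in the library labelled Scx siRNA 1, with a log2 fold change of -0.84 (SE 0.24, adjusted p = 0.0393, limma). Without that library it was -0.63 and the adjusted p 0.0710 (limma). FNBP1, a membrane-bending protein that recruits actin regulators, had 470.1, 448 and 441 against 351, 349 and 251, below the scramble control in each library (-0.53, adjusted p = 0.108, limma; 0.0220 to 0.188 over the alternatives with all libraries). It was called lower when scaled to total reads (-0.81) and without the library labelled Scx siRNA 2 (-0.61, adjusted p = 0.0346, limma). YIPF3, a Golgi protein, was lowest in the library labelled Scx siRNA 2 (747, 939 and 851 against 927, 252 and 719.7). COMMD7, a COMM domain protein that restrains NF-κB, had a log2 fold change of -0.04 (95% interval -0.62 to 0.54). The septin SEPT4 had 5, 7 and 22 reads in the scramble control and 0, 10 and 0 after Scx siRNA, with overlap, and was called lower only without the library labelled Scx siRNA 2 (-3.08, adjusted p = 0.0276, limma).

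The 12 genes for enzymes and intracellular signalling held the most calls, 4 lower and 1 higher of 11 tested, and were also the largest group tested. Their shares were 36.4% lower and 9.09% higher, against 12.1% and 12.9% of all genes. DTWD1 (ENSECAG00000012316), a tRNA-modifying enzyme, was the 1 higher gene of the whole list. It had 1245, 1092 and 935 normalized counts in the scramble control and 2903, 4098 and 2484 after Scx siRNA, 290.0% of the scramble control mean. The lowest Scx siRNA library lay well above the highest scramble control library, and the log2 fold change was 1.51 (SE 0.23, adjusted p = 0.00581, limma). Like-expressed genes had a median log2 fold change of 0.13. The value lay just above the fold threshold, and fell below it under 4 of the scalings (TMM, total reads, quantile, cyclic loess).

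Gasdermin D (GSDMD, ENSECAG00000015005) forms membrane pores in pyroptosis. It had 110.2, 130.2 and 110.0 normalized counts in the scramble control and 27.1, 27.9 and 34.5 after Scx siRNA, and the log2 fold change was -1.94 (SE 0.34, adjusted p = 0.00919, limma), or 25.6% of the scramble control mean. AIFM2 (ENSECAG00000004338), an oxidoreductase that protects membranes from lipid peroxidation, had 57.5, 64.7 and 54.4 against 13.5, 13.0 and 13.8. The Scx siRNA values of AIFM2 rest on 11, 13 and 10 reads, so few that their closeness (13.4 ± 0.438, mean ± SD, n = 3) says little. The log2 fold change of AIFM2 was -2.05 (SE 0.43, adjusted p = 0.0158, limma). With cyclic loess normalization its adjusted p was 0.0646 (limma; 0.000444 to 0.0646 over the alternatives with all libraries).

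Arylsulfatase B (ARSB, ENSECAG00000020847) is a lysosomal enzyme that breaks down dermatan and chondroitin sulfate. It had 673, 655 and 584 normalized counts in the scramble control and 283, 149 and 272 after Scx siRNA, all below the scramble control, and fell by 1.49 on the log2 scale (SE 0.28, adjusted p = 0.0116, limma). PRRC2C (ENSECAG00000016800, listed under its older name BAT2D1) is a component of stress granules. Its scramble control libraries hardly differed (2399, 2372 and 2385), the Scx siRNA libraries had 1310.1, 1761 and 1254, and the log2 fold change was -0.74 (SE 0.18, adjusted p = 0.0250, limma). Without the library labelled Scx siRNA 1 the adjusted p of PRRC2C was 0.0595 (limma).

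The other enzymes were not called. GBA2, a glucosylceramidase, was below the scramble control in each library (439.9, 408 and 419 against 294, 106 and 309) with a log2 fold change of -0.99 (adjusted p = 0.123, limma). The size of this value rested on the library labelled Scx siRNA 2, without which GBA2 was called lower at -0.48 (adjusted p = 0.0308, limma). The ubiquitin ligase subunit FBXL7 (349, 299.8 and 349 against 254, 58.8 and 305) was lowest in the library labelled Scx siRNA 2, and the ubiquitin ligase RNF41 (350.2, 331 and 380.5 against 444, 164 and 229) was below the scramble control in Scx siRNA 2 and 3 and above it in the first. The phosphodiesterase PDE8A, the NADPH oxidase NOX4 and the kinase TNNI3K had positive log2 fold changes of 0.34, 0.29 and 0.52, and that of PDE8A turned negative under at least 1 alternative.

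Of the 57 genes, 15 were too low to test. There was no read in any library for 8 of them, TNMD, CHODL, CNTN3, SELE and UTS2R of the membrane proteins, the matrix protein ITIH3, and the secreted proteins ANGPTL7 and SERPINB7. A count of 0 allows up to 3 reads, or 0.246 to 0.459 RPM by library (RPM scales reads to the library's total on genes), and covers counting error only. The other 7 had reads but a mean under 5 normalized counts. FOXS1, a forkhead factor of perivascular cells, had 5, 4 and 14 reads in the scramble control and 0, 0 and 0 after Scx siRNA, and TRIM29, a tripartite motif protein, had 11, 7 and 8 against 0, 3 and 0. For each of these the groups did not overlap, and the exact permutation test gave p = 0.1, two-sided, the smallest that 3 libraries against 3 allow. With the minimum dropped to any value above 0, limma called FOXS1 lower (-2.66, adjusted p = 0.00832) and not TRIM29 (-2.32, adjusted p = 0.0501). That fit called 12.5% of its 14281 genes lower. The corneal and tendon proteoglycan keratocan (KERA) had 1, 3 and 4 against 12, 7 and 0 reads, with overlap. DPP4, a surface peptidase, had reads in the library labelled Scx siRNA 1 alone (11). CCDC3 had 2, 6 and 10 against 6, 0 and 0 reads, and MYOC and GPR83 had 1 read each over the 6 libraries.

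**Figure D4:**
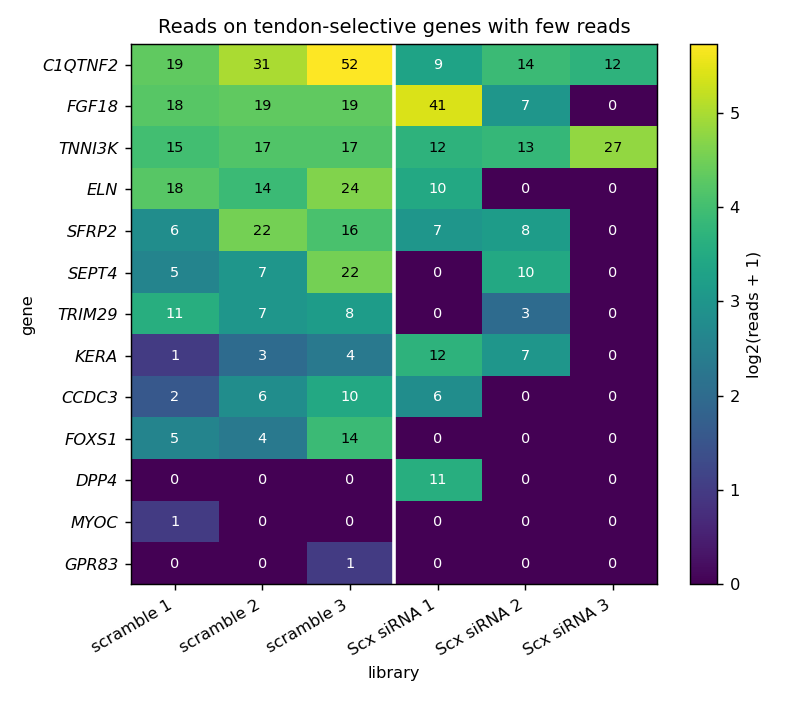
Reads (not normalized) of 13 genes with few reads, 1 row per gene and 1 column per library, with the count in each cell and its color on a log2(reads + 1) scale. FOXS1 has 4 to 14 reads in the scramble control and 0 after Scx siRNA, while KERA and FGF18 reach their highest count in the library labelled Scx siRNA 1.

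The scramble control libraries had a read for 47, 46 and 47 of the 57 genes and the Scx siRNA libraries for 44, 42 and 38. The same held over the whole table, with 13151 to 13392 genes with a read in a scramble control library and 11026 to 11183 in a Scx siRNA library, so fewer genes were detected after Scx siRNA within and outside the list. A read in all 3 libraries of the group was found for 46 genes in the scramble control and 37 after Scx siRNA. Of the 42 tested genes, 5 (ELN, SEMA3B, FGF18, SFRP2 and SEPT4) had reads in every scramble control library and 0 in at least 1 Scx siRNA library, a share near the 12.6% of all genes tested.

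The Scx siRNA libraries differed among themselves on this list. The median coefficient of variation of the 42 genes was 9.45% in the scramble control and 33.5% after Scx siRNA, against 11.4% and 40.4% for all genes. In the library labelled Scx siRNA 2, 6 genes (XG, SEMA3B, SDC1, FBXL7, GBA2 and YIPF3) lay at under 50% of the lower of the other Scx siRNA libraries, or 14.3% against 17.1% of all genes. In Scx siRNA 3 there were 4 (CPXM2, EBF1, FGF18 and SFRP2), or 9.52% against 5.28%, and in Scx siRNA 1 there were 0, against 5.32%. Of the 9 tested transcription factors and nuclear proteins, 7 had their highest Scx siRNA value in the library labelled Scx siRNA 2, against 15 of all 42 genes, and its part in their positive values was not tested.

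Leaving out any scramble control library ended the lower calls. Without the library labelled scramble control 1, 2 or 3, none of the 10 lower genes passed the threshold by limma, whereas 10, 11 and 12 genes were lower at an unadjusted p under 0.05, and edgeR called 1, 0 and 0 lower. The share of all tested genes called lower dropped with them, to 2.35%, 1.08% and 1.31%. The highest adjusted p of these 10 genes with a library left out ran from 0.0740 for ARSB to 0.165 for EZR. Leaving out the library labelled Scx siRNA 1, 2 or 3 gave 8, 14 and 11 lower genes by limma. The share of all tested genes called lower in these fits was 12.3%, 22.5% and 17.2%. DTWD1 kept its call by limma with each library left out (adjusted p 0.00137 to 0.0466), but not by edgeR without scramble control 2 (adjusted p = 0.0504). With all libraries, 6 of the 11 calls (DTWD1, CYTH3, ARSB, LOXL4, XG and GSDMD) were kept under every alternative. The other 5 each lost theirs under at least 1, AIFM2 and CPXM2 with cyclic loess normalization (adjusted p = 0.0646 and 0.0627, limma), EZR with a weight for each group (0.0504, limma), and AIFM2, USF1 and PRRC2C with the replicate number as a block (0.0590, 0.0502 and 0.0510, limma). Called on the recovered reads by edgeR, the list gave the same 10 lower genes and the same higher gene as by limma.

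**Figure D5:**
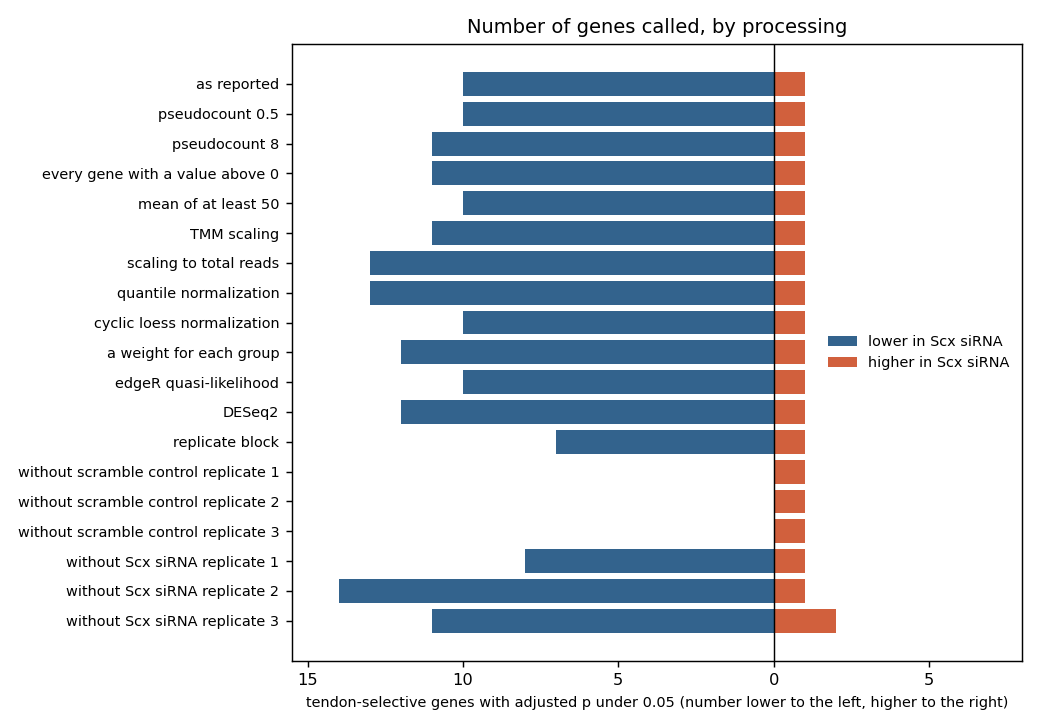
Number of the tendon-selective genes called at an adjusted p under 0.05, lower to the left and higher to the right, as reported and under each alternative. Lower genes number 7 to 13 with all libraries, 0 without any 1 scramble control library, and 8 to 14 without 1 Scx siRNA library. The shares of all tested genes called lower are 8.47% to 18.0%, 1.08% to 2.35%, and 12.3% to 22.5% in turn.

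The lower genes came from both species lists. Of the 17 tested genes named for human tendon, 5 were lower (29.4%), with a median of -0.74. Of the 24 named for rat tendon, 5 were lower (20.8%) and 1 higher (4.17%), with a median of -0.59. Of all genes tested, 12.1% were lower and 12.9% higher. Beside like-expressed genes the order of the medians turned, with 9 human-listed genes below and 8 above (median difference -0.15) and 18 rat-listed genes below and 6 above (-0.63). Whether the lists differ was not tested. All 10 genes of the list left out here were tested, with 4 lower and 3 higher genes and a median of -1.46. Both directions thus lay above the shares of all genes, whereas the genes described here did so for lower only. The 10 genes were set apart with earlier results of these data known, so this contrast is not a result about either set. In the study's separate list of 13 tendon-related genes, 12 were tested, of which 7 were lower and 1 higher, with a median of -0.92.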

How the data were processed

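Bulk RNA of equine tenocytes was measured in 3 libraries of each siRNA, scramble and Scx. The authors aligned the reads to EquCab2 with HISAT2 2.0.3 after trimming with Trimmomatic, assigned them to Ensembl 90 genes by HTSeq, and scaled the counts by DESeq2 1.12.4 (bcl2fastq 1.8.4 and FastQC 0.11.3 are also in the submitters' processing notes). The deposited values are a signal, each library's counts divided by its size factor (normalized counts). The entry for the Scx mRNA, 1 added to the annotation, is the gene's only one. The table also holds the authors' own comparison (a base mean, a log2 fold change with its standard error, a Wald statistic and p-values), which was not used. Columns were matched to samples by number and siRNA, with 0 columns left unmapped. How strand was counted is not given in the sources used here, so overlapping antisense transcripts cannot be told apart.

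All values above 0 (100%) were whole multiples of the value of 1 read, within 0.1 read, which gave the reads per gene. limma 3.58.1 (R 4.3.3) compared log2(normalized count + 1) between the groups for the 11517 genes whose mean was 5 or more (lmFit, then eBayes with trend, no covariates, Benjamini-Hochberg adjustment). The model was first run on simulated data, where only the run with an equal spread in both groups had to pass. The groups here differ in spread (common dispersion 0.360 after Scx siRNA, 0.0129 in the scramble control). Single low genes were compared by exact permutation tests (SciPy 1.17.1 in Python 3.11.15). Alternatives were pseudocounts of 0.5 and 8, minimum means of 50 or of anything above 0, group weights in limma, scaling by TMM, total reads, quantiles or cyclic loess, a block for the replicate number, omission of each library, and edgeR 4.0.16 (quasi-likelihood) or DESeq2 1.42.0 run on the reads. Any of the 57 genes could be named, with values by library for those called, and values for uncalled genes at or beyond 0.5 on the log2 scale in either direction, for MKX, PRRX1, THBS1, COL12A1, FBLN1 and ELN, and for those too low to test. The list and the tests were chosen with earlier results of these data known. Normalized counts are not divided by transcript length, so levels of different genes were not compared. Promoters, transcript lengths and markers of other cell types beyond SELE and VIM were not analysed here.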

Additional observations from a re-analysis of the deposited data

How the results depend on the processing

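With every library, the number of lower genes was 10 as reported and 7 to 13 under the alternatives, and DTWD1 was the higher gene in each. Over these alternatives 8.47% to 18.0% of all genes were lower and 8.33% to 17.5% higher. Both ends of the count of lower genes, 7 with the replicate block and 13 scaled to total reads, came with the lowest and highest of these shares lower. No called gene changed direction under any alternative. Of 197 values of single called genes, fits with a library left out included, 158 kept their call and 39 lost it. Most of the losses came with a library left out, where only 1 called gene, DTWD1, kept its call each time. With all libraries, 6 genes kept theirs under every alternative. Another 10 genes, none of them called, changed sign under at least 1 alternative with every library (PRRX1, FBLN1, PDE8A, MKX, MITF, MAB21L1, C1QTNF2, FGF18, SFRP2 and SEPT4), and 3 more did so only with a library left out (ANKRD12, COMMD7 and EBF1).

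For the 42 genes the median log2 fold change became -0.92 scaled to total reads, where the median of all genes moved from -0.20 to -0.48, and -0.51 with edgeR and -0.47 with DESeq2. Its distance from the median of all genes was -0.57 to -0.29 over the alternatives with every library. Against genes of a like scramble control mean it was -0.37 with every gene above 0. The count higher by 1.5 or more on the log2 scale was 0 with TMM, total reads, quantile and loess scaling, and the count lower with that fold was 7 scaled to total reads. The cause was not tested.

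With 1 library left out, lower genes ranged from 0 to 14 and higher genes from 1 to 2 by limma, and from 0 to 14 and 0 to 2 by edgeR, a combination added after seeing the data. With the fold threshold, lower genes ranged from 0 to 6 (limma) and 0 to 5 (edgeR) and higher genes from 0 to 1. The median ranged from -0.72 to -0.54 by limma and from -0.68 to -0.49 by edgeR. The log2 fold change of Scx ranged from -3.14 to -1.72 by limma and from -6.35 to -1.39 by edgeR.

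The main fit did not pair the libraries by replicate number. Same-numbered libraries had deviations from the group means that correlated at -0.08, 0.02 and 0.17 across genes, and differently numbered ones at -0.23 to 0.21. With the wide spread after Scx siRNA, these values cannot decide whether the replicate numbers pair the libraries. The replicate block gave 7 lower and 1 higher gene. Of the 15 genes under the minimum, the fit of every gene with a value above 0 called 1, FOXS1, lower. It called 12.5% of its 14281 genes lower.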
